A study of Mus musculus with 8 samples.

Results

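The genes examined here encode the standing form of the proteasome, the chamber in which cells degrade proteins tagged with ubiquitin. They were chosen by name: every gene whose symbol starts with Psma, Psmb, Psmc, Psmd, Psmf or Psmg, together with Pomp, and without Psmb8, Psmb9 and Psmb10, the beta subunits that replace the catalytic ones in inflammation. On the array 42 such genes were found among 18820 genes read by a probe set with a single symbol, through 49 of 35556 probe sets in all. Each of 6 genes (Psma3, Psma5, Psmb1, Psmb3, Psmc1 and Psmd2) had more than 1 probe set, and the one with the highest mean was used. Psma4, the remaining alpha subunit, was left out because its probe set also lists another symbol. Psmc3ip entered through its prefix, although it encodes a partner protein in meiotic recombination and no part of the proteasome. In the RefSeq table of build GRCm38.p6 the 42 genes lie on 15 chromosomes, with at most 7 on 1 of them (chromosome 11).

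RNA came from whole lungs of FVB mice 8 to 12 weeks old, with the sexes evenly mixed, in 4 conditions: CCSP-p52 mice given LPS, WT mice given LPS, CCSP-p52 mice without LPS and WT mice without LPS. All of them, the WT littermates negative for the transgene included, drank doxycycline (dox) at 2 g/L for 1 week, and LPS, an inflammatory component of the bacterial cell wall, was given into the trachea 48 hours before the lungs were taken. CCSP-p52 mice express FLAG-tagged p52, a subunit of the transcription factor NF-κB, under a dox-inducible system that the promoter of club cell secretory protein (CCSP) restricts to airway epithelium. RNA of 3 mice was pooled for each array. A condition therefore had 2 pools and 6 mice, and the errors below rest on the spread between pools.

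The proteasome consists of a barrel, the 20S core, and a cap, the 19S regulatory particle. In the barrel, outer rings of alpha subunits gate the entry and inner rings of beta subunits carry the cutting sites, on Psmb5, Psmb6 and Psmb7. In the cap, a base with a ring of ATPases (Psmc1 to Psmc6) unfolds the substrate, and a lid holds Psmd14, the enzyme that removes the ubiquitin chain. Dedicated chaperones, among them Pomp, Psmg1 to Psmg4, Psmd5, Psmd9 and Psmd10, help to assemble the particle and are not part of its finished form. Psmf1 encodes an inhibitor. In inflamed tissue, interferon is known to replace the cutting beta subunits with Psmb8, Psmb9 and Psmb10, which makes the immunoproteasome.

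The values were the deposited log2 signals, normalized so that the medians of the 8 arrays lay between 7.48 and 7.54. The second CCSP-p52 LPS pool stood apart from the other LPS pools. Its correlation with the 4 arrays without LPS, over all probe sets, was 0.976 to 0.981, whereas that of the other 3 LPS pools was 0.953 to 0.969. In the second WT LPS pool the log2 of the summed signal of 6 squamous epithelium markers was 13.89, against 8.98 to 9.20 on the other arrays, and that of 7 striated muscle markers was 13.69, against 10.54 to 11.96. Nfkb2, which encodes p100, the precursor of p52, was at 11.28 and 10.53 in the CCSP-p52 LPS pools, 10.83 and 10.56 in the WT LPS pools, 10.20 and 10.33 in the CCSP-p52 dox pools and 9.51 and 9.58 in the WT dox pools. Its CCSP-p52 minus WT difference was 0.21 ± 0.24 (SE) with LPS and 0.72 ± 0.24 without LPS on the log2 scale, and it did not pass adjustment over all probe sets in either state (adjusted p = 0.851 and 1, limma). Whether its probes also detect the transgene is not known.

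Most proteasome genes were expressed at a higher level in lungs given LPS than in lungs without it. Of the 42 genes, 30 rose, 1 fell and 11 did not pass at a Benjamini-Hochberg adjusted p under 0.05 (limma, additive model of p52 and LPS over 8 arrays, 4 with and 4 without LPS). Over all 18820 genes tested, 13.5% rose and 20.8% fell. The median log2 fold change (logFC) of the 42 genes was 0.40 (1.32-fold), with quartiles of 0.21 and 0.53 and extremes of -0.28 and 0.97, whereas the median over all genes was 0.0046. The study's cut-off, a logFC of 0.41 for increases, was used here in either direction and with an unadjusted p of at most 0.05. At it 20 of the 42 genes were higher with LPS and 0 were lower, against 1862 and 2619 of all 18820 genes. At an unadjusted p under 0.05 alone (limma), 1 of the 42 genes was lower, against 4874 of all genes. In 29 of the 42 genes all 4 LPS arrays lay above all 4 arrays without LPS, a separation that 15.1% of all genes showed, and in 0 did they all lie below. Since whole lung was measured, a change in the number of cells of a type and a change in RNA per cell cannot be told apart.

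**Figure D1:**
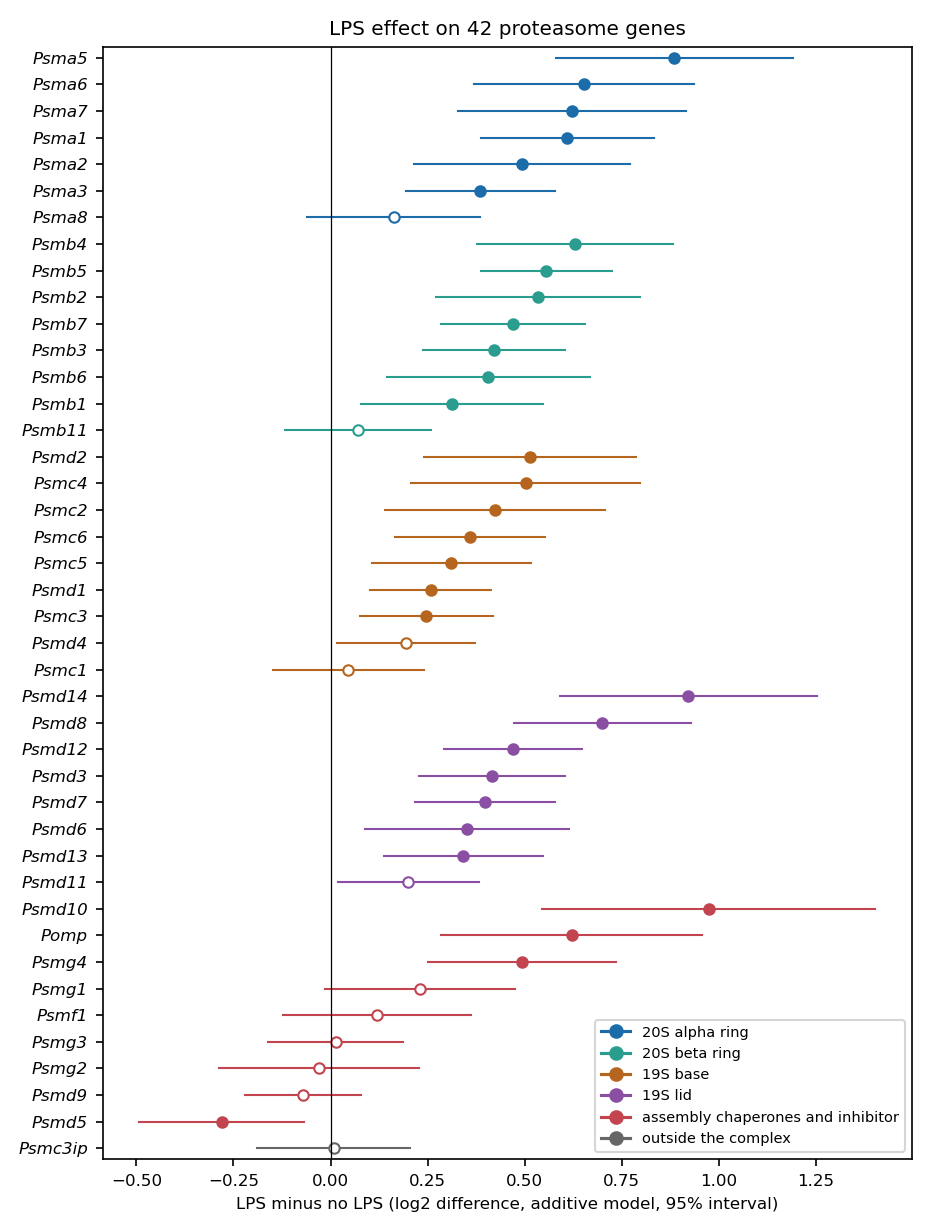
LPS effect on each of the 42 genes, as the log2 difference between the 4 arrays with LPS and the 4 without from the additive model (points, filled where the adjusted p is under 0.05) with its 95% interval (lines), coloured by role. Psmd10, Psmd14 and Psma5 have the largest values, at 0.97, 0.92 and 0.89, and Psmd5 is the only filled point below 0, at -0.28.

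Markers of other cells moved with LPS in the same lungs. All 8 measured neutrophil markers rose (median logFC 3.88), and the log2 of their summed signal was 13.81 to 14.32 on the LPS arrays, against 10.25 to 10.85 on the arrays without LPS. Of 8 monocyte and macrophage markers 6 rose (median 0.95, summed level 14.40 to 14.84 with LPS, against 13.77 to 14.00 without), and all 7 proliferation markers rose (median 1.40, 11.36 to 12.08 with LPS, against 10.05 to 10.81 without). Of 5 endothelial markers 4 fell (median -0.54, 13.95 to 14.62 with LPS, against 14.85 to 14.96 without), as did 3 of 10 lung epithelial markers (median -0.19, 15.57 to 16.08 with LPS, against 16.03 to 16.10 without). Of 7 lymphocyte markers 1 rose and 1 fell (median -0.04, 11.16 to 12.06 with LPS, against 10.78 to 11.66 without). The part of these shifts in the proteasome values was not tested.

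The alpha ring had the largest median LPS effect among the role groups. All 6 of its measured subunits other than Psma8 rose, with a median logFC of 0.62 and a range of 0.39 (Psma3) to 0.89 (Psma5). Psma5 was at 10.40 and 9.78 in the CCSP-p52 LPS pools and at 10.08 and 9.98 in the WT LPS pools, against 9.05 and 9.29 in the CCSP-p52 dox pools and 9.11 and 9.25 in the WT dox pools. Every LPS pool was thus above every pool without LPS, and the logFC was 0.89 ± 0.13 (SE, 1.85-fold, adjusted p = 0.00196). The logFC of Psma6 was 0.65 ± 0.12 (adjusted p = 0.0050) and that of Psma7 was 0.62 ± 0.13 (adjusted p = 0.0072). Psma8, an alpha subunit of the testis, had signals of 5.74 to 6.09 on all arrays and a logFC of 0.16 ± 0.10 (adjusted p = 0.24). The files hold no detection call, so whether Psma8 lay above background is not known.

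All 7 beta subunits other than Psmb11 rose, with a median logFC of 0.47 and a range of 0.31 (Psmb1) to 0.63 (Psmb4). Psmb5, the subunit with the chymotrypsin-like site, was at 11.92 and 11.70 in the CCSP-p52 LPS pools and 11.88 and 11.80 in the WT LPS pools, against 11.32 and 11.21 in the CCSP-p52 dox pools and 11.30 and 11.26 in the WT dox pools. The LPS and no-LPS pools did not overlap, and with 0.56 ± 0.07 (adjusted p = 0.0011) Psmb5 had the smallest adjusted p of the 42 genes. The logFC of Psmb7, with the trypsin-like site, was 0.47 ± 0.08 (adjusted p = 0.0033), and that of Psmb6, with the caspase-like site, was 0.41 ± 0.11 (adjusted p = 0.026). Psmb4, a beta subunit without a cutting site, had the largest value of the ring at 0.63 ± 0.11 (adjusted p = 0.0036). Psmb3 lay between 12.64 and 12.85 on the LPS arrays, against 12.26 and 12.45 as the limits on the arrays without LPS. Psmb11, the beta subunit of the thymic cortex, had signals of 6.58 to 6.87 and a logFC of 0.07 ± 0.08 (adjusted p = 0.56).

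Among the 9 genes of the base 7 rose, with a median logFC of 0.31. The largest change was that of Psmd2, a scaffold of the base, at 11.85 and 11.35 in the CCSP-p52 LPS pools and 11.85 and 11.77 in the WT LPS pools, against 11.25 and 11.13 in the CCSP-p52 dox pools and 11.30 and 11.09 in the WT dox pools (logFC 0.51 ± 0.12, adjusted p = 0.012). Its lowest LPS pool, the second of CCSP-p52, lay just above its highest pool without LPS. Of the 6 ATPases 5 rose, by 0.25 (Psmc3) to 0.50 (Psmc4). Psmc1, the remaining ATPase, did not pass, with 10.58 and 10.44 in the CCSP-p52 LPS pools and 10.42 and 10.44 in the WT LPS pools, against 10.27 and 10.55 in the CCSP-p52 dox pools and 10.39 and 10.49 in the WT dox pools. These pools overlapped and the logFC was 0.05 ± 0.08 (adjusted p = 0.72), while a second probe set of Psmc1 gave 0.22 ± 0.08 (adjusted p = 0.057). Which transcript each of the probe sets reads is not given. Psmd4, a receptor for ubiquitin chains, had a logFC of 0.19 ± 0.08 (adjusted p = 0.090).

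Of the 8 lid genes 7 rose, with a median logFC of 0.41. Psmd14, the deubiquitinating enzyme, was at 11.35 and 10.77 in the CCSP-p52 LPS pools and 11.15 and 10.95 in the WT LPS pools, against 10.32 and 9.97 in the CCSP-p52 dox pools and 10.25 and 9.99 in the WT dox pools. The logFC was 0.92 ± 0.14 (1.89-fold, adjusted p = 0.0023), with no overlap between pools with and without LPS. Psmd8, a structural subunit of the lid, was at 11.18 and 10.83 in the CCSP-p52 LPS pools and 11.01 and 10.74 in the WT LPS pools, against 10.36 and 10.24 in the CCSP-p52 dox pools and 10.21 and 10.14 in the WT dox pools. Here too the pools did not overlap, at a logFC of 0.70 ± 0.10 (1.62-fold, adjusted p = 0.0015). Psmd11, another structural subunit, did not pass (0.20 ± 0.08, adjusted p = 0.086).

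The assembly chaperones and the inhibitor did not move as a group. Of these 9 genes 3 rose, 1 fell and 5 did not pass, and their median logFC was 0.12. Psmd10, a chaperone of the base also known as gankyrin, had the largest change of the 42 genes, with 10.52 and 9.60 in the CCSP-p52 LPS pools and 10.38 and 9.96 in the WT LPS pools, against 9.14 and 9.11 in the CCSP-p52 dox pools and 9.17 and 9.13 in the WT dox pools. All LPS pools were above all others, but the CCSP-p52 LPS pools were far apart (SD 0.65, n = 2), beside a logFC of 0.97 ± 0.19 (1.96-fold, adjusted p = 0.0054). Pomp, which matures the beta ring, was at 10.28 and 9.65 in the CCSP-p52 LPS pools and 10.28 and 9.88 in the WT LPS pools, against 9.45 and 9.35 in the CCSP-p52 dox pools and 9.35 and 9.46 in the WT dox pools (logFC 0.62 ± 0.15, adjusted p = 0.013). Psmg4, a chaperone of the alpha ring, rose by 0.49 ± 0.11 (adjusted p = 0.0084), while its partners Psmg1, Psmg2 and Psmg3 had values of 0.23, -0.03 and 0.01 that did not pass. Psmf1 (0.12), Psmd9 (-0.07) and, outside the complex, Psmc3ip (0.01) did not pass either.

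Psmd5, a chaperone of the base, was the gene that fell. It was at 9.26 and 9.05 in the CCSP-p52 LPS pools and 9.38 and 9.15 in the WT LPS pools, against 9.58 and 9.33 in the CCSP-p52 dox pools and 9.56 and 9.49 in the WT dox pools. The pools overlapped, since the first WT LPS pool lay above the second CCSP-p52 dox pool. Its logFC was -0.28 ± 0.09 (adjusted p = 0.047), a call lost with 6 of the 8 arrays left out in turn (adjusted p up to 0.14), whereas the direction was kept. Psmb1, at 0.31 ± 0.10 (adjusted p = 0.046), lost its call with 7 of the 8 arrays left out in turn (adjusted p up to 0.13), and its second probe set gave 0.31 ± 0.12 (adjusted p = 0.088).

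**Figure D2:**
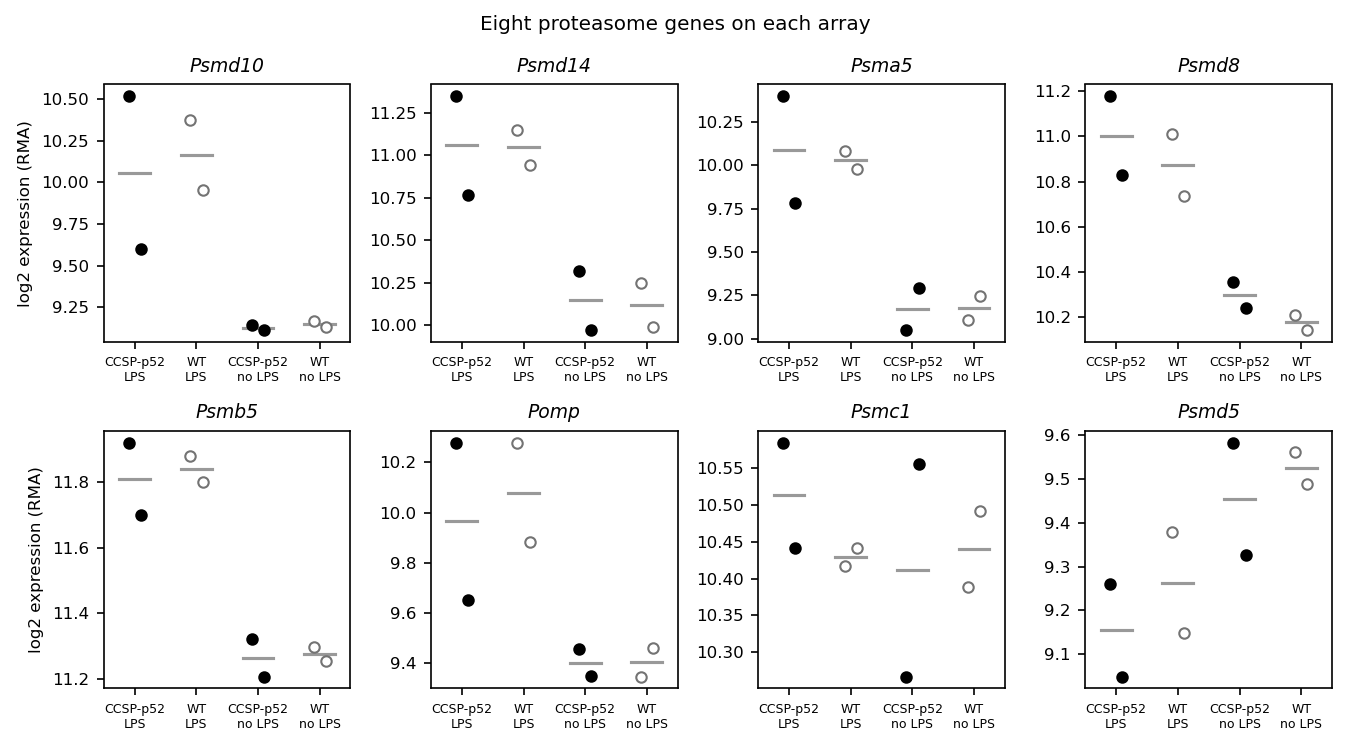
Log2 expression of 8 genes on each of the 8 arrays (filled points CCSP-p52, open points WT; the left point of each pair is pool 1; bars are means of 2 pools), each panel on its own scale that does not start at 0. In Psmd10, Psmd14, Psma5, Psmd8, Psmb5 and Pomp the 4 LPS arrays lie above the 4 without LPS, with the second CCSP-p52 LPS pool the lowest of the 4 in all but Psmd8, whereas the arrays overlap in Psmc1 and in Psmd5.

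The 30 subunits of the core and cap, that is without Psma8, Psmb11, chaperones, inhibitor and Psmc3ip, differed more between the LPS pools than between the pools without LPS. Relative to the mean of the 4 arrays without LPS, their median was 0.64 and 0.28 in the CCSP-p52 LPS pools and 0.49 and 0.39 in the WT LPS pools, against 0.03 and -0.02 in the CCSP-p52 dox pools and -0.02 and -0.0036 in the WT dox pools. The second CCSP-p52 LPS pool was the lowest of the 4 LPS arrays in 27 of these 30 genes and the first was the highest in 26. How often this order held among all genes, or among all genes that rose with LPS, was not counted. In the second CCSP-p52 LPS pool the summed level of proliferation markers was 11.36, against 11.75 to 12.08 in the other LPS pools. That of neutrophil markers was 13.83, against 13.81 to 14.32, and that of the immunoproteasome subunits 12.43, against 12.76 to 13.11. Its monocyte and macrophage markers (14.40, against 14.73 to 14.84) and lymphocyte markers (11.16, against 11.40 to 12.06) were also below those of the other LPS pools, whereas its endothelial (14.62, against 13.95 to 14.25) and lung epithelial markers (16.08, against 15.57 to 15.82) were above them. Their part in the low proteasome values of that pool was not tested. Without this pool the LPS effect on all 42 genes was called in 33 upward with a median of 0.46, and without the second WT LPS pool in 25 with a median of 0.42.

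**Figure D3:**
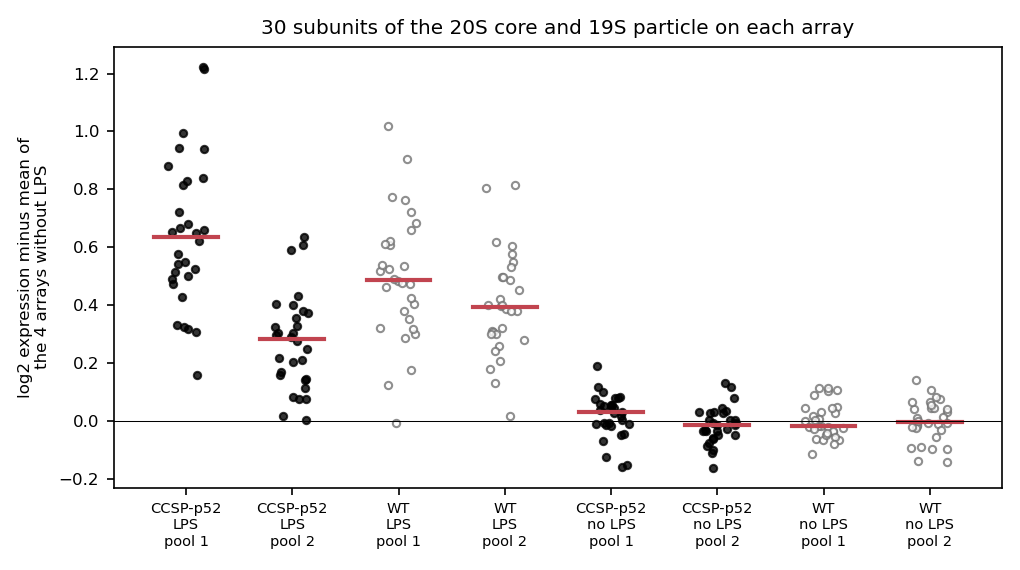
Log2 expression of 30 subunits of the 20S core and 19S particle on each array, minus each gene's mean over the 4 arrays without LPS (points are genes, filled for CCSP-p52 and open for WT, and red bars are medians; the horizontal spread carries no value). The medians are 0.64 and 0.28 in the CCSP-p52 LPS pools and 0.49 and 0.39 in the WT LPS pools, and lie between -0.02 and 0.03 on the other arrays.

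The LPS effect was also taken within each genotype, from a model of the 4 conditions with 2 pools each. In CCSP-p52 lungs 8 of the 42 genes rose at an adjusted p under 0.05 (all genes 4.31%), and in WT lungs 12 did (all genes 8.07%). Of the 8 and 12 genes, 7 were shared: Psma1, Psma5, Psmb5, Psmb7, Psmd8, Psmd12 and Psmd14. The second probe set of Psma5 gave 0.83 ± 0.23 in CCSP-p52 lungs, which did not pass (adjusted p = 0.0717, limma). In WT lungs it gave 0.85 ± 0.23 (adjusted p = 0.0435, limma). The overlap among all genes was not counted. The median logFC was 0.39 in CCSP-p52 lungs and 0.42 in WT lungs. At an unadjusted p under 0.05 (limma), 25 and 26 genes were higher, against 2293 and 2966 of all 18820 genes. None was lower at it in either genotype, against 3116 and 4241 of all genes. At an adjusted p under 0.05 none was lower either, against 947 and 2642 of all genes. The numbers of genes that rose moved widely when single arrays were left out, which leaves a single pool in a condition. How many of all genes rose in such fits was not counted. With the pool number as a block, the counts were 14 in CCSP-p52 lungs and 18 in WT lungs. Across the 42 genes the LPS effects of the genotypes, which share no array, had a Pearson's r of 0.918, close to the 0.902 across all 18820 genes; genes are not independent replicates.

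The standing catalytic subunits had smaller LPS effects than the subunits that replace them in the immunoproteasome. Psmb8, which replaces Psmb5, had a logFC of 1.51 ± 0.15 (adjusted p = 0.000367), Psmb9, which replaces Psmb6, 1.28 ± 0.14 (adjusted p = 0.000438), and Psmb10, which replaces Psmb7, 1.08 ± 0.16 (adjusted p = 0.0016). Psmb8 was at 11.48 and 10.78 in the CCSP-p52 LPS pools and 11.26 and 11.11 in the WT LPS pools, against 9.83 and 9.55 in the CCSP-p52 dox pools and 9.70 and 9.49 in the WT dox pools. The excess over the standing subunit was not tested itself. The 95% intervals of each pair did not overlap (Psmb5 0.39 to 0.73, Psmb8 1.16 to 1.86; Psmb6 0.14 to 0.67, Psmb9 0.97 to 1.60; Psmb7 0.28 to 0.66, Psmb10 0.73 to 1.44). The activator subunits Psme1 and Psme2, which open the barrel and respond to interferon, rose by 0.90 ± 0.12 and 1.20 ± 0.11, while the other activators Psme3 (0.18 ± 0.11) and Psme4 (0.12 ± 0.06) did not pass.

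**Figure D4:**
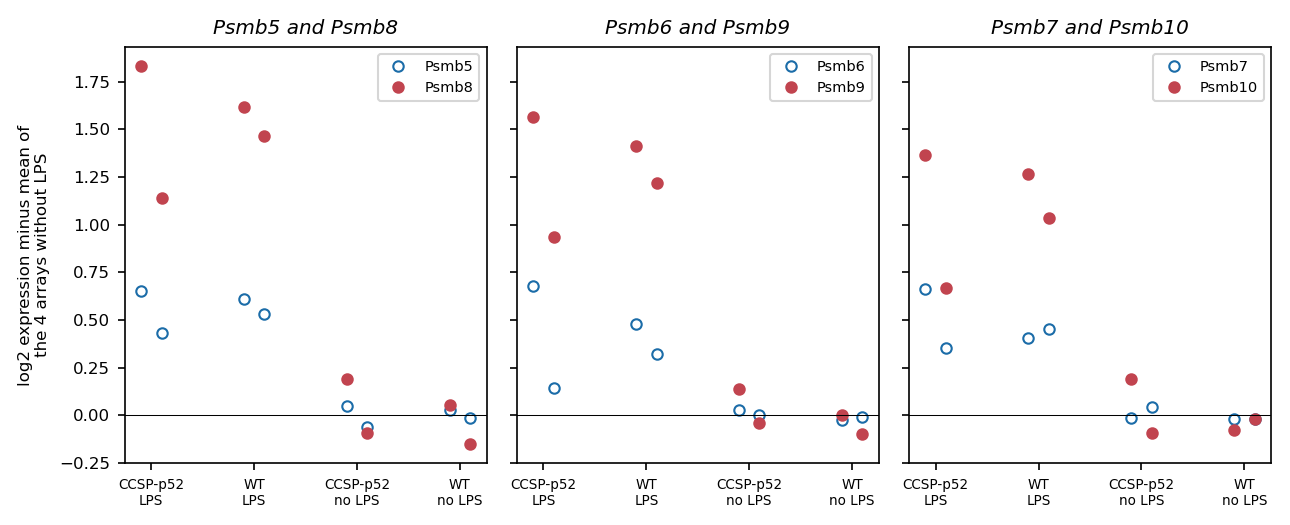
Log2 expression of the standing catalytic subunits Psmb5, Psmb6 and Psmb7 (open) and of the immunoproteasome subunits Psmb8, Psmb9 and Psmb10 (filled) on each array, minus each gene's mean over the 4 arrays without LPS; the left point of each pair is pool 1. On every LPS array the open point lies below the filled one, with LPS effects of 0.56, 0.41 and 0.47 for the open and 1.51, 1.28 and 1.08 for the filled genes.

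Few other genes around the proteasome passed the test, and how their share compares with that of the members was not tested (13.5% of all genes rose and 20.8% fell). Of 8 measured further subunits and partners 0 rose (1 higher at an unadjusted p under 0.05: Ecpas, a proteasome adaptor, at 0.16; limma) and 1 fell: Akirin2, a nuclear import factor of proteasomes, at -0.43 ± 0.07 (adjusted p = 0.0030). Of 7 measured shuttle and unfolding factors only Nploc4, a cofactor of the unfoldase Vcp, rose (0.33 ± 0.07, adjusted p = 0.0083). Of 5 regulators of proteasome gene transcription only Bach1, a repressor, rose (0.25 ± 0.06, adjusted p = 0.017). Nfe2l1, the activator known to raise proteasome genes when proteasome activity is low, had a logFC of 0.01 ± 0.06 (adjusted p = 0.90), and Nfe2l2, the oxidative stress factor, 0.20 ± 0.10 (adjusted p = 0.18).

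Of the 42 genes, 34 have an entry in the RefSeq promoter table for mouse build GRCm38.p6, some with more than 1 start, which gives 36 windows of 250 bases before the start. These were searched on both strands for 3 short motifs: the antioxidant response element (TGACNNNGC), the CCAAT box (CCAAT) and a core of ETS factor sites (CCGGAAG); motifs and printed windows were chosen after the expression values were seen. The antioxidant element stood in 5 windows (13.9%; 10.9% of the windows of all genes tested), the CCAAT box in 13 (36.1%; 34.7%) and the ETS core in 13 (36.1%; 9.4%). The ETS core was found in 8 of 26 windows of genes that rose with LPS and in 5 of 10 windows of the other members. A match is a description of letters and does not show a bound site. Windows are given for the deubiquitinase, the maturation factor and the chymotrypsin-like subunit, which rose, and for Psmd5, which fell, in the direction of transcription with matches in capitals.

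Psmd14, chr2:61711444-61711693, plus strand, ending at the start of the gene (CCAAT box on the opposite strand, 159 to 155 bases before the start): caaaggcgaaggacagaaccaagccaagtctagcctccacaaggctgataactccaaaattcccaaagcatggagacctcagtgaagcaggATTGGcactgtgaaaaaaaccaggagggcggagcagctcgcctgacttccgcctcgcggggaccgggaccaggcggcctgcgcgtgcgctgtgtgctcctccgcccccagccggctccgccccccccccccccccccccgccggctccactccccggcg

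Pomp, chr5:147860378-147860627, plus strand (ETS cores at 62 to 56 and, on the opposite strand, 49 to 43 bases before the start): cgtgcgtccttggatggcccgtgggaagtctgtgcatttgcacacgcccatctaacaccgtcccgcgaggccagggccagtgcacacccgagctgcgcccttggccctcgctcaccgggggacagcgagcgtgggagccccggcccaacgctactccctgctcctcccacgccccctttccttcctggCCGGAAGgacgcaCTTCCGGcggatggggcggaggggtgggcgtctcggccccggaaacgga

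Psmb5, chr14:54617996-54618245, minus strand (antioxidant response element at 47 to 39 bases before the start): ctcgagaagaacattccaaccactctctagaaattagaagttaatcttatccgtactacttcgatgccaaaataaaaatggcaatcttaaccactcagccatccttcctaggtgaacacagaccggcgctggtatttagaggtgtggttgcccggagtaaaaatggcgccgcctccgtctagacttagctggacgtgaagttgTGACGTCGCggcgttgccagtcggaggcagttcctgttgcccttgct

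Psmd5, chr2:34870963-34871212, minus strand, with none of the 3 motifs: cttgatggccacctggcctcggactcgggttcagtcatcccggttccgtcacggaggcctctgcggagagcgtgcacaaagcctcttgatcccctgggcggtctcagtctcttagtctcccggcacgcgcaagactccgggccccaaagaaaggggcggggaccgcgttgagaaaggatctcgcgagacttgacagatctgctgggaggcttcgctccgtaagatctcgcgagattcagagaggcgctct

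Between CCSP-p52 and WT lungs, no proteasome gene reached the study's cut-off or passed adjustment. In the additive model 0 of the 42 genes were at the study's cut-off (all genes 0.271%), 0 passed adjustment and 0 had an unadjusted p under 0.05 (limma; all genes 2.31%), with a median logFC of 0.0053 and a range of -0.11 to 0.14. With LPS 0 were at the cut-off (all genes 2.06%), 0 passed adjustment and 1 had an unadjusted p under 0.05 (all genes 6.87%), with a median of 0.0076 and a range of -0.21 to 0.32. Without LPS 0 were at the cut-off (all genes 0.733%), 0 passed adjustment and 0 had an unadjusted p under 0.05 (all genes 1.73%), with a median of -0.0064 and a range of -0.11 to 0.15. In these lungs without LPS, 4 of 7 proliferation markers were higher in CCSP-p52 than in WT at the cut-off (median logFC 0.57), none of them with an adjusted p under 0.05. With LPS 0 of these 7 markers were at the cut-off, 6 had a negative logFC, and the median was -0.20. The difference between their p52 effects with and without LPS was negative in all 7 (median -0.70), none with an adjusted p under 0.05. The 95% intervals limit the size of a missed effect: in the additive model those of 41 of 42 genes lay inside a logFC of 0.41 either way, but with LPS and without LPS 24 of 42 did in each, with limits as wide as -0.78 and 0.65.

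**Figure D5:**
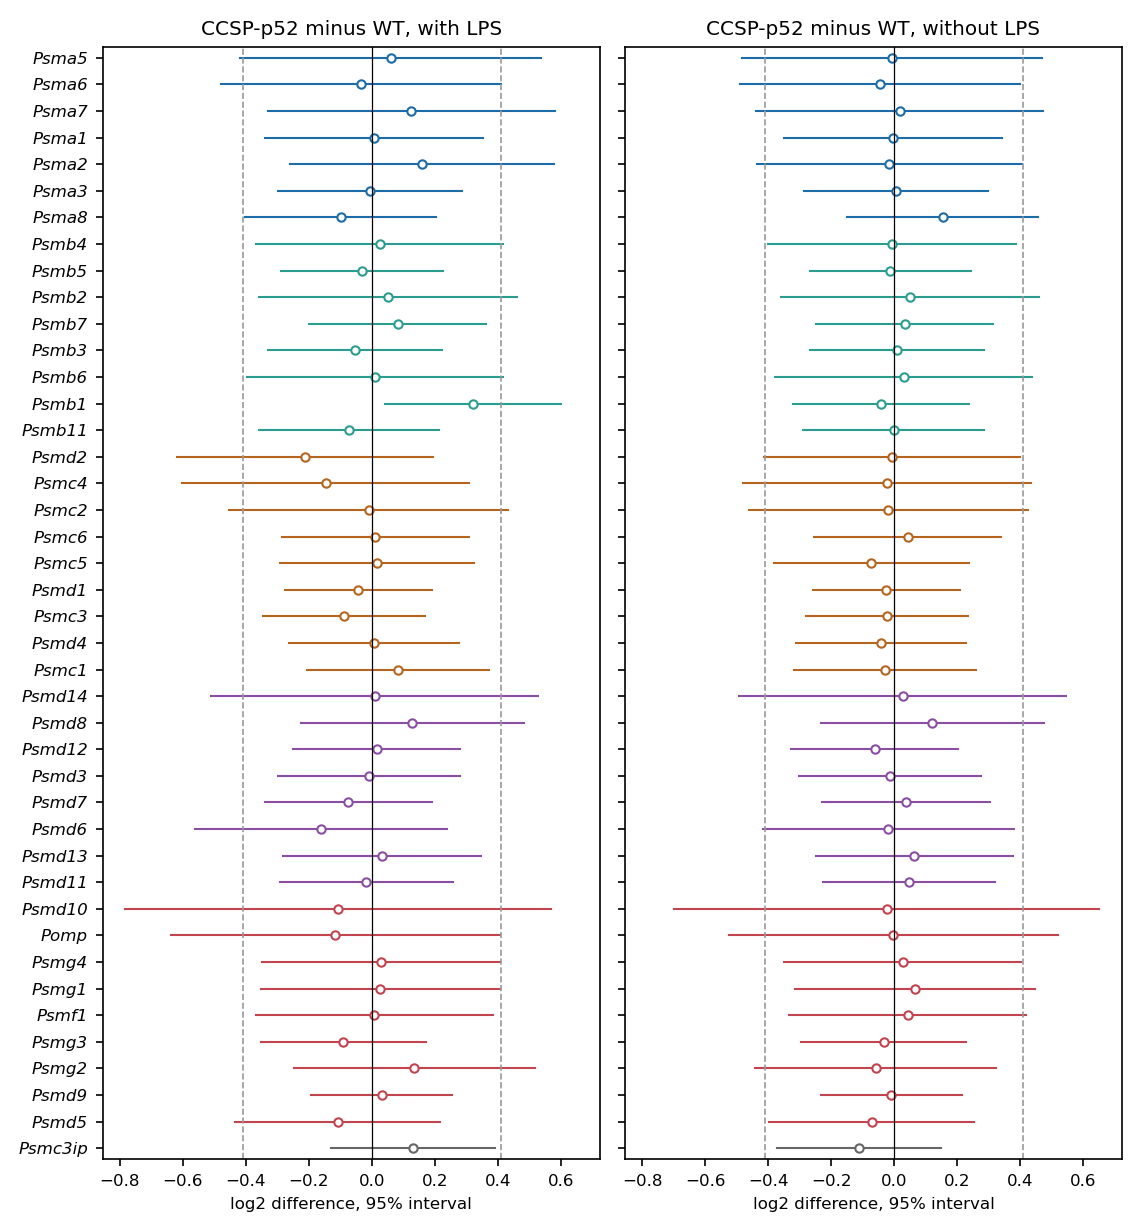
CCSP-p52 minus WT log2 difference for each of the 42 genes with LPS (left) and without LPS (right), with 95% intervals from the model of 4 conditions with 2 pools each; colours are the roles used for the LPS effect and dashed lines mark a logFC of 0.41 either way. Only the interval of Psmb1 with LPS, 0.04 to 0.60, leaves out 0.

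Psmb1, a beta subunit without a cutting site, was the gene at an unadjusted p under 0.05. It was at 10.20 and 9.90 in the CCSP-p52 LPS pools, against 9.70 and 9.76 in the WT LPS pools, and at 9.57 and 9.54 in the CCSP-p52 dox pools, against 9.55 and 9.64 in the WT dox pools. Both CCSP-p52 LPS pools were above both WT LPS pools, by 0.32 ± 0.12 on average (adjusted p = 0.70, limma), while the dox pools of the genotypes overlapped. Its second probe set gave 0.13 ± 0.18. The difference between the p52 effects with and without LPS was 0.37 ± 0.17 for Psmb1 (adjusted p = 0.91), 0.24 ± 0.16 for Psmc3ip (adjusted p = 0.91) and -0.25 ± 0.18 for Psma8 (adjusted p = 0.92), the 3 genes with the lowest p in this comparison. None of the 42 genes passed in it at an adjusted p or an unadjusted p under 0.05 (limma; all genes 5.02% at the latter).

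Within pool numbers the p52 effect after LPS pointed in opposite directions. The first CCSP-p52 LPS pool was above the first WT LPS pool in 33 of 42 genes (median difference 0.13), and the second CCSP-p52 LPS pool was below the second WT LPS pool in 37 (median -0.13). Over all genes these median differences were -0.0124 and 0.0093, but how many of all genes lay in each direction was not counted. Among the pools without LPS the medians of the 42 genes were 0.01 and -0.02. Without the first CCSP-p52 LPS pool, Psmd10 (-0.57), Psmd2 (-0.46), Psmd6 (-0.43) and Pomp (-0.43) were lower in CCSP-p52. Without the second pool, Psmb1 (0.47), Psma7 (0.44) and Psma2 (0.43) were higher. These genes are named because they reached the study's cut-off in such a fit, which leaves a single pool in a condition. None of them passed adjustment, and how many of all genes reached the cut-off was not counted. Without both second LPS pools the value of Psmb1 was 0.50. Without the second WT LPS pool the median of the 42 genes was -0.05. For the LPS effect, by contrast, both pool numbers of both genotypes had the same direction, with medians over the 42 genes of 0.53 and 0.26 in the CCSP-p52 pools and 0.45 and 0.32 in the WT pools.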

How the data were processed

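Whole lung RNA was measured on 8 Affymetrix Mouse Gene 1.0 ST arrays, each of 3 pooled mice. The authors made the deposited log2 values with the Robust Multichip Average (R package oligo), which corrects background, equalizes the arrays' distributions and summarizes probe sets; the equalized distributions remove differences in total RNA. The submitters' processing notes name limma 3.20.8. No scanner files were used; the number of arrays limits the precision and detection is unknown. Probe sets were named by the platform's table in GEO, with symbols brought up to date; whether it is of the same array version was not settled. Of 35556 probe sets, 21218 had 1 symbol, 1881 several and 12457 none, and only the first were tested; per gene the probe set with the highest mean counts.

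Comparisons used limma 3.58.1 in R 4.3.3. An additive model held the factors p52 and LPS. A model of the 4 conditions gave effects within a state or genotype and their difference. Together they made 7 comparisons, with Benjamini-Hochberg adjustment over all 21218 probe sets. The study's methods name a linear model with both factors and do not say whether it held their interaction. In the study's gene list the logFC of Nfkb2 is 0.720, which equals the p52 effect without LPS here (0.7198) and not the additive one (0.4669). The p-values rest on the spread between pools, moderated toward that of all probe sets. In the additive model this spread also holds any interaction of p52 and LPS. The steps were tested on simulated arrays, in which each probe set varied independently of the others. Shifts of many genes together in 1 pool were not simulated. Pools were numbered in the labels. Between conditions, over all probe sets with 1 symbol, the deviations of equal numbers from the condition mean had correlations of 0.14 to 0.35 (6 pairs of conditions). Each condition gives only a single difference between its pools, so these values cannot settle whether the numbers pair the pools. No source says what equal numbers share. The main models did not use the numbers. Alternatives were robust or trended moderation, array weights, the pool number as a block, centring, quantile normalization, a filter at the 25th percentile of mean level, all probe sets tested, the mean of a gene's probe sets, averaged effects of the 4-condition model, an adjusted p under 0.01, each array left out, and both second LPS pools left out.

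The members and lists were chosen with earlier results of these data known. Genes were named by rule: the 8 largest LPS effects, Psmb5, Psmb6 and Psmb7, the largest of each role, any member at the cut-off for p52, the 3 lowest p for the difference, the lowest and highest mean level (Psma8 and Psmb3), Pomp, and from other lists Psmb8, Psmb9, Psmb10, Psme1, Psme2 and those passing under LPS. Other genes are named to account for their group, and Nfe2l1, Nfe2l2 and Ecpas were named after their values were seen. Of 11, 9 and 5 listed partners, shuttles and ubiquitin genes, 8, 7 and 0 had a probe set with 1 symbol; the ubiquitin list was not analysed. Amino acid sequences were not used here.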

Additional observations from a re-analysis of the deposited data

How the results depend on the processing

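The median LPS effect on the 42 genes stayed positive in every alternative (0.32 to 0.46 with each array left out, 0.50 without both second LPS pools). Counts below are of these genes only, and the share of all genes in the alternatives was not taken. The 30 genes that rose became 17 at an adjusted p under 0.01 and 21 to 33 with each array left out. Per gene 19 alternatives were run, all at an adjusted p under 0.05, so the threshold of 0.01 is not among them. Of the 31 genes called, 20 kept their call in all 19, and the others kept their direction. Psmd5 lost its call in 11, Psmb1 in 10, Psmd6 in 9 and Psmc3 in 8. The 1 gene that fell, Psmd5, became 0 with centring, quantile normalization, all probe sets tested, averaged effects, both second LPS pools left out and an adjusted p under 0.01, and 0 to 1 with each array left out. Values of uncalled genes near 0 changed sign: Psmg2 to 0.0314 (quantile normalization), 0.0996 (both second LPS pools left out) and -0.124 to 0.0257 (each array left out), Psmb11 to -0.0298 (both second LPS pools left out), and, with each array left out, Psmc3ip (-0.0413 to 0.0772), Psmc1 (-0.0232 to 0.0918) and Psmg3 (-0.0249 to 0.0554).

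Within genotypes the counts of genes that rose depended on the setting. The 8 in CCSP-p52 lungs became 3 with array weights, 14 with the pool number as a block, 4 with centring, 1 with all probe sets tested, 30 without both second LPS pools and 0 to 29 with each array left out, with a median of 0.54 without both second LPS pools and 0.22 to 0.54 with each array left out. The 12 in WT lungs became 28 with array weights, 18 with the block, 5 with all probe sets tested, 25 without both second LPS pools and 0 to 28 with each array left out. The block changed no count for p52 and took the 30 genes that rose with LPS to 29.

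For p52, the 0 genes at the cut-off with LPS did not stay 0 when LPS pools were left out. With each array left out the median with LPS was -0.16 to 0.16. That of the difference between LPS states was -0.18 to 0.18, and both extremes came from leaving out a CCSP-p52 LPS pool. A fit without an array leaves 1 pool in a condition, which is assumed to vary like the others. The cause of these changes was not tested. No member passed adjustment for p52 in any alternative. With 2 pools per condition, only 24 of 42 genes had a p52 interval inside the cut-off in either LPS state.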
